A study of Mus musculus with 6 samples.

Results

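The miR-290 to miR-295 cluster (Mir290a, Mir291a, Mir292, Mir294, Mir295 and their neighbours) was examined for open chromatin in mouse embryonic stem cells. Its locus was taken as every ATAC-seq peak that overlaps chr7:3150000-3350000 of the mouse genome build GRCm39, a 200 kb window given in advance by position. Overlapping peaks of the 6 libraries, with a minimum of 1 shared bp, were joined and are called regions. The window held 64 of the 259376 merged regions, numbered here R1 to R64 in order along the chromosome. The cells were of the E14TG2a line, grown in serum with LIF and the inhibitors PD0325901 (of MEK) and CHIR99021 (of GSK3), and ATAC-seq marks open DNA by where a transposase can insert adapters. The 3 genotypes, with 2 libraries each, were wild type (WT), a knockout of Alkbh5 (KO) and Alkbh5 del-cIDR, a deletion of the part named cIDR (IDR is the series title's term for an intrinsically disordered region). ALKBH5 is an enzyme that removes methyl groups from adenosine in RNA. All 3 genotypes had the same culture and spike-in nuclei. The labels do not say whether a genotype is 1 clone or whether replicates came from separate cultures, and their spread may be technical. With 2 libraries against 2, an exact two-sided permutation test cannot give a p below 0.333, so no test between genotypes is reported and differences are described by whether the libraries overlap.

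A microRNA is cut from a folded precursor, the hairpin, and guides silencing proteins to messenger RNAs that pair with its seed. Hairpins of a cluster that lie on the same strand are generally processed from a shared primary transcript. The activity of that transcript's promoter and enhancers sets how much of each of these hairpins can be made. The miR-290 to miR-295 cluster is known as an abundant microRNA cluster of mouse embryonic stem cells, where its AAGUGC family promotes passage through the cell cycle, and it is silenced as cells differentiate. ATAC-seq reads the DNA around the hairpins and does not measure the microRNAs.

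The mature sequences show which members can share targets. The RefSeq table (build GRCm38.p6) matched 9 symbols of the cluster and 17 mature sequences, 13 on the plus strand and 4 on the minus strand, with 11 different seeds. The seed, bases 2 to 8, is in capitals. The 3′ arms whose seed begins with AAGUGC are shown first because they are the family for which the cluster is known.
miR-291a-3p: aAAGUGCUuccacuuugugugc
miR-294-3p: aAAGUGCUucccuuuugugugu
miR-295-3p: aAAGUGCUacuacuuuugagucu
miR-290a-3p: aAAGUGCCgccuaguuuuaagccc
miR-291b-3p: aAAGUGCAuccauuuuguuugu

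The first 3 of these have the identical seed AAGUGCU, and miR-290a-3p and miR-291b-3p differ from it in the last seed base alone. In the whole table of 1679 mature names, 8 have a seed that begins with AAGUGC, of which 5 are in this cluster. The RefSeq table is incomplete here, with no mature entry for miR-292a-3p or miR-302a-3p, so these counts may miss members of the family. The Mir292 hairpin holds AAGUGCC in its 3′ part, where the table gives no mature sequence. Outside the cluster, the full seed AAGUGCU occurs in 2 entries of the miR-302 family, which are shown for comparison.
miR-302b-3p: uAAGUGCUuccauguuuuaguag
miR-302d-3p: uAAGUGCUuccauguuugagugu

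The 5′ arms form another group. A seed beginning with CUCAAA was held by 6 mature sequences in the table and all 6 were of this cluster. The 5 on the plus strand are shown because none of the other names in the table shares this start.
miR-290a-5p: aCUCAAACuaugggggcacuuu
miR-292a-5p: aCUCAAACugggggcucuuuug
miR-293-5p: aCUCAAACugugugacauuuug
miR-294-5p: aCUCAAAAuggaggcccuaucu
miR-295-5p: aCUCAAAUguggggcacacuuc

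The Mir294 hairpin shows how both arms sit in 1 precursor, with the 5′ arm and then the 3′ arm in capitals.
Mir294: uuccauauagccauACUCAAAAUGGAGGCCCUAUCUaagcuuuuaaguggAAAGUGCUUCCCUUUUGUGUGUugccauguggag

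The 4 minus-strand sequences come from Mir290b and Mir292b. Their hairpins are reverse complements of parts of the Mir290a and Mir292 hairpins, so these pairs lie on opposite strands of the same DNA. From Mir290a to Mir295 the hairpins span 2216 bp in that build, a small fraction of the window. In its gene order, sorted by the lower coordinate of each gene, AU018091 is the last protein-coding gene before the hairpins and Myadm the first after them. Nlrp12 and the long noncoding RNA gene D7Ertd143e come between hairpins in that order. Their upper ends were not examined, so they may reach beyond the hairpins. The stretch of sequence around the start of D7Ertd143e holds the whole Mir290a hairpin. Because that table and the peaks are of different builds, hairpins and gene starts are not assigned to single regions here, and each region is named by its GRCm39 position.

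The peak lists held 150680 to 193905 mouse peaks per library, more in both WT libraries than in the other 4. For each peak the authors deposited a fold (the tag pileup at the summit over the local background) and a −log10 p. These 2 values together give the summit height in whole tags and the local background in tags; the height was whole within 0.1 tag in 100% of peaks of every library. The median height was 17 to 21 tags, and the library-wide background, taken as the 1st percentile of the local background, was 1.01 to 1.26 tags. Total reads per library were not analysed here, and a missing call does not show that a region was closed. Marker loci of embryonic stem cells were not analysed here.

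The locus was dense in called regions in every genotype. Peaks in the window numbered 44 and 45 in WT, 40 and 43 in del-cIDR, and 42 and 36 in KO. The genotype means were 44.5 ± 0.707 in WT, 39 ± 4.24 in KO and 41.5 ± 2.12 in del-cIDR (SD, n = 2 each). WT was above KO in both libraries and KO replicate 2, which had the shortest peak list of all, had the fewest peaks in the window. Peaks covered 8.81% and 8.97% of the window in WT, 8.70% and 8.85% in del-cIDR, and 8.87% and 8.04% in KO, so the genotypes overlapped in covered bases except that KO replicate 2 was lowest.

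Of the 64 regions, 23 (35.9%) were called in all 6 libraries, against 38.3% of all merged regions. A single library called 13 (20.3%), against 25.2% of all merged regions, and 2 to 5 libraries called the other 28. Among 13159 windows of a fixed 200 kb grid over the genome, 477 of them empty, the median held 16 regions and 5 regions called in all 6 libraries. Only 7 windows held more than 64 regions, with a maximum of 68, and 384 held more than 23 regions called in all 6. Grid windows that overlap the locus are among the 13159 and may be among these.

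**Figure D1:**
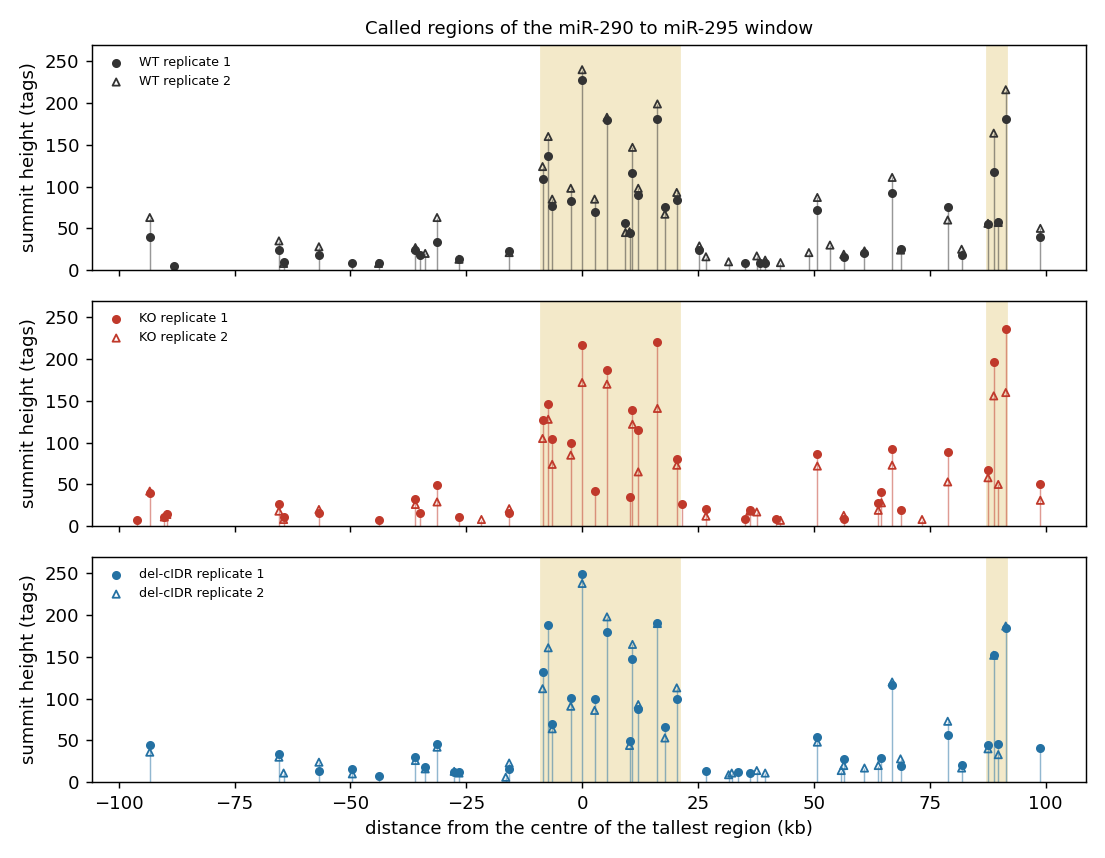
Height of each called region in tags (y axis) by distance in kb from the centre of the tallest region, R24 (x axis), with 1 panel per genotype, filled circles for replicate 1 and open triangles for replicate 2. Lines reach to the higher replicate, shading marks the 2 stretches of high local background, and in all 3 genotypes R24, R26, R31 and R63 stand there.

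The window held 2 stretches of high local background. The local background was at least 10 times the library-wide background, as a mean over the 6 libraries on the log2 scale, at 13 of the 23 regions called in all 6. This limit was chosen after the values were seen. In all, 2302 of 99216 regions called in all 6 (2.32%) met it. None of the 13159 grid windows held more than 13 such regions, and the median window held 0. The grid window that overlaps both stretches holds the same 13 regions, so in part the locus is ranked against itself. Joined where no more than 10 kb apart, 10 of the 13 formed a long stretch at chr7:3241222-3271267, which spans 30046 bp. It ranked 2 of 1252 such stretches in the genome both by number of regions and by length, where the median stretch had 2 regions and 1795 bp. The other 3 regions (R60, R61 and R63) formed a second stretch at chr7:3337532-3341855, 4324 bp long. The members nearest the limit on either side were R29, with a local background 9.16 to 12.2 times the library-wide one over the 6 libraries, and R55, with 5.09 to 7.24 times.

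The tallest region was R24, 632 bp long at chr7:3249828-3250459. Its summit had 228 and 240 tags in WT, 249 and 238 in del-cIDR, and 217 and 172 in KO. By height it was at percentiles from 98.5 to 99.7 of the 6 lists. R31, at chr7:3266198-3266581, had 181 and 199 tags in WT, 191 and 190 in del-cIDR, and 221 and 141 in KO. In R31 the KO libraries lay on both sides of all the others before scaling to library height. R26, at chr7:3255025-3255984, had 180 and 183 tags in WT, 180 and 198 in del-cIDR, and 187 and 170 in KO.

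The upstream end of the long stretch, by coordinate, was a close trio of regions, R20 to R22. R21, at chr7:3242525-3243130, had 137 and 160 tags in WT, 188 and 161 in del-cIDR, and 146 and 128 in KO. Both del-cIDR libraries were above all the others there in tags. At the other end R33, the widest of the stretch at 1416 bp (chr7:3269852-3271267), had 84 and 93 tags in WT, 100 and 113 in del-cIDR, and 81 and 73 in KO. In these tags, which are not scaled for depth, both KO libraries were the lowest and both del-cIDR libraries the highest. Scaled to each library's median height, KO overlapped WT at R33.

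In the second stretch, R63, at chr7:3341269-3341855, had 181 and 216 tags in WT, 185 and 187 in del-cIDR, and 236 and 160 in KO. Its summit moved by no more than 1 bp over the 6 libraries. R61, at chr7:3338687-3339238, had 118 and 164 tags in WT, 152 in both del-cIDR libraries, and 197 and 156 in KO. Over the 23 regions the summit position varied by a median of 67 bp across libraries, against 69 bp over all regions called in all 6. The widest spread was 540 bp, in R33, so the summit of that region is not 1 place in all lists.

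The deposited fold ranked the locus lower than the height did. The fold belongs to each peak in its own list and was used only to rank peaks there. By fold, the highest peak of the window was at the 90.6 and 97.0 percentiles of the WT lists, 88.1 and 89.1 of the KO lists, and 88.9 and 86.5 of the del-cIDR lists. By height, the highest was at 99.7 and 99.6 in WT, 99.7 in both del-cIDR libraries, and 98.9 and 98.5 in KO. Peaks at or above the 90th percentile by height numbered 17 and 15 in WT, 13 in both del-cIDR libraries, and 14 and 13 in KO. By fold there were 2 in each WT library and 0 in the other 4. Percentiles depend on the length of the list, and the WT lists were the longest. These ranks and counts therefore do not show a difference between genotypes.

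The region with the highest mean percentile by fold was R2, at chr7:3156477-3157217 and outside both stretches. Its percentile was 88.5 and 97.0 in WT, 88.9 and 79.5 in del-cIDR, and 79.7 and 85.1 in KO. It had only 40 and 63 tags in WT, 44 and 36 in del-cIDR, and 40 and 42 in KO, over a local background 1.53 to 2.01 times the library-wide one. Ranked by −log10 p in place of the fold, the strongest region was R24, at a mean percentile of 98.3, where R2 by fold had 86.4 ± 6.59 (SD over 6 libraries).

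The 8 regions with the highest mean percentile by fold were R2, R48, R58, R6, R63, R24, R55 and R26, from 86.4 down to 77.5, and 2 of the 8 (R24 and R26) were in the long stretch. R48, at chr7:3300482-3301319, was at the 90.1 and 90.8 percentiles in WT, 76.3 and 75.0 in del-cIDR, and 88.1 and 89.1 in KO. Its tags were 72 and 87 in WT, 54 and 48 in del-cIDR, and 87 and 72 in KO, so both del-cIDR libraries were below all the others on both measures. R24 was at 81.4 and 78.2 in WT, 76.1 and 75.8 in del-cIDR, and 81.8 and 82.3 in KO.

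**Figure D2:**
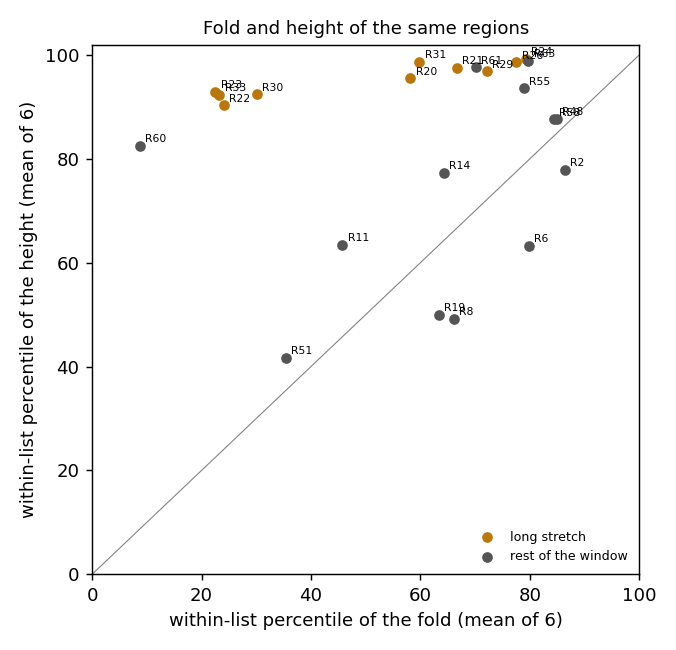
Within-list percentile of the deposited fold (x axis) and of the summit height (y axis), each a mean over 6 libraries, for the 23 regions called in all 6. The 10 regions of the long stretch lie between 90.3 and 99.3 by height and between 22.5 and 79.3 by fold, all above the line of equal percentiles.

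The gap between the rankings was widest where the local background was high. In the long stretch the median region was at a mean percentile of 59.0 by fold and 96.2 by height. In the second stretch the medians were 70.1 and 97.6. Among the other 10 regions of the window they were 72.5 by fold and 70.4 by height. R60, beside R61, had the lowest percentile by fold of the 23 (8.66) with 82.5 by height. Since the fold divides by the local background, its rank is low for a given height where that background is high.

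Relative to the library-wide background, the local background of the long stretch was lowest in the KO libraries and highest in the del-cIDR libraries, with no test. Its median over the 10 regions was 14.0 and 14.2 times the library-wide background in WT, 16.1 and 15.5 in del-cIDR, and 12.5 and 12.4 in KO. The genotypes did not overlap in this median. In tags, before that division, the medians were 15.2 and 16.7 in WT, 18.4 and 17.7 in del-cIDR, and 15.8 and 12.6 in KO. There KO replicate 1 lay between the WT libraries, so the gap between KO and WT depends on the scale. A scale taken from the heights of each library was not tried for the local background. In the second stretch the medians were 11.95 and 12.6 in WT, 12.4 and 12.1 in del-cIDR, and 13.0 and 12.8 in KO, where both KO libraries were the highest. By default MACS2 averages the background over about 10 kb when no control is given, a setting not given in the sources used here, so neighbouring regions may share reads in this value and are not independent.

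R33 had the largest gap between WT and KO. Its local background was 17.7 and 17.6 times the library-wide one in WT, 19.5 and 20.1 in del-cIDR, and 12.4 and 12.1 in KO. On the log2 scale the means were 4.14 ± 0.0058 in WT, 3.62 ± 0.024 in KO and 4.31 ± 0.029 in del-cIDR (SD, n = 2), and KO minus WT was -0.52. Only 0.608% of the 2302 regions of high local background had a lower KO minus WT difference. R31 had 19.2 and 19.7 times in WT, 22.0 and 22.1 in del-cIDR, and 15.0 and 14.7 in KO, a KO minus WT difference of -0.39 in log2.

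R24 had 15.8 and 15.5 times in WT, 17.5 and 16.9 in del-cIDR, and 11.8 and 11.98 in KO. R26 had 13.2 and 13.3 times in WT, 15.1 and 14.5 in del-cIDR, and 9.41 and 10.0 in KO. At both, the 3 genotypes stood apart with KO lowest. At the upstream end the KO and WT libraries overlapped: R20 had 11.6 and 11.5 times in WT, 13.7 and 12.4 in del-cIDR, and 11.1 and 11.5 in KO.

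Over the 10 regions of the long stretch, both KO values were below both WT values in 7 and above in 0. Among all regions of high local background the KO values were below in 22.7% and above in 60.9%. The median KO minus WT difference in log2 local background was -0.23, with single regions from -0.52 to -0.0031, where the median of all regions of high local background was 0.12. Both del-cIDR values were above both WT values in 10 of 10, where 54% of regions of high local background were above and 14% below. The median del-cIDR minus WT difference was 0.17, from 0.13 to 0.20, against 0.060 over all regions of high local background. Both comparisons share the WT libraries. Set directly against each other, both del-cIDR values were above both KO values at 10 of 10 regions, with a median difference of 0.39, where 32% of regions of high local background were above and 50.3% below, and 30.4% and 36.1% of all regions called in all 6. Over all regions called in all 6, both KO values were below both WT values in 33.7%, and both del-cIDR values were above in 23.2%.

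**Figure D3:**
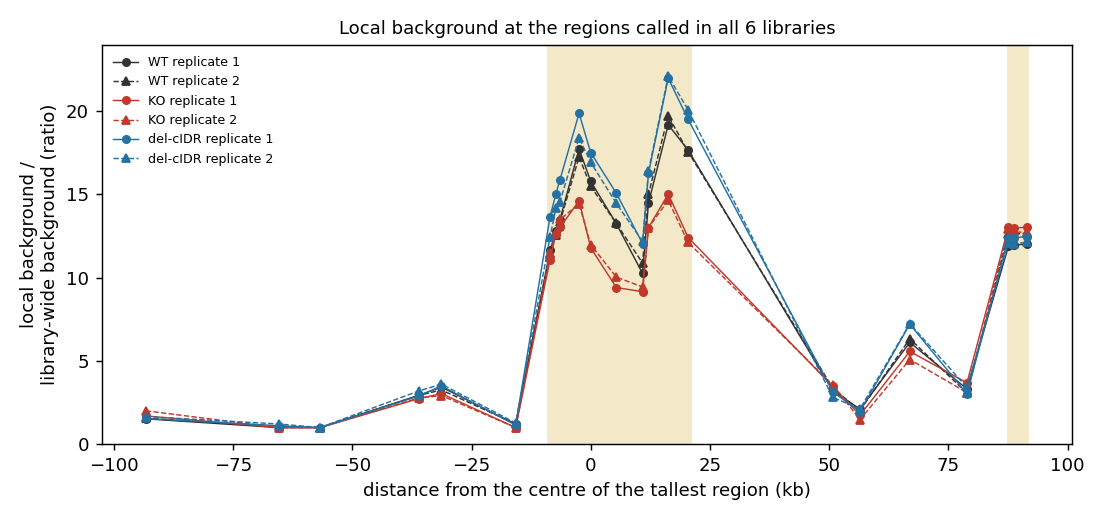
Local background divided by the library-wide background (y axis, ratio) at the 23 regions called in all 6 libraries, by distance in kb from the centre of R24 (x axis), 1 line per library. In the shaded long stretch the KO lines are lowest from R23 to R33 and the del-cIDR lines highest throughout, up to 22.1 times, while the 6 lines lie close together in the second stretch.

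Summit heights were scaled to another value of each library than the local background, and their order of genotypes changed with the scaling. Heights were put on a log2 scale relative to each library's median over regions called in all 6. In the long stretch the median KO minus WT difference was 0.13, where that of all regions called in all 6 was 0.08, and both KO values were above both WT values in 4 of 10 regions (R20, R22, R23 and R29) and below in 1 (R24). Over all regions called in all 6, KO was above in 36.5% and below in 23.5%. Over regions of high local background it was above in 71.3% and below in 8.95%, with a median of 0.29. As a class, regions of high local background were thus higher in KO on this scale. When each library was scaled instead to the highest 20% of regions, all KO minus WT differences shifted by -0.19, the median of the long stretch became -0.06, and 1 of its regions was above (R22) and 3 below (R21, R24 and R33). With that scaling 21.1% of all regions called in all 6 were above and 37.9% below, with a median of -0.11, so the sign of the long stretch's median moved with that of all regions. The del-cIDR minus WT median of the long stretch was then 0.12. By these medians KO was lowest and del-cIDR highest, the same order as in the local background. R24 was lower in both KO libraries with both of these scalings and overlapped WT when scaled to chromosome 7.

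The R24 height was 2.78 ± 0.07 in WT, 2.70 ± 0.04 in KO and 2.97 ± 0.05 in del-cIDR (log2 relative to the library median, SD, n = 2). Within the second stretch R61 was 2.04 ± 0.22 in WT, 2.56 ± 0.04 in KO (SD, n = 2) and 2.29 in each del-cIDR library. Its KO minus WT difference of 0.52 was the highest of the 23 regions, and both KO values stayed above both WT values with all 3 scalings. R48 was 1.22 ± 0.07 in WT, 1.41 ± 0.08 in KO and 0.72 ± 0.12 in del-cIDR.

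In del-cIDR, both values were above both WT values at 9 of the 10 regions of the long stretch and below at 1 (R22). Over all regions called in all 6 they were above in 26.3% and below in 19.9%, and over regions of high local background in 50.9% and 8.3%. The median difference in the long stretch was 0.19, against 0.13 over regions of high local background and 0.04 over all regions called in all 6. The largest was at R33, where the height was 1.38 ± 0.02 in WT and 1.78 ± 0.12 in del-cIDR. Scaled to the highest 20% of regions, 7 of the 10 were above and 1 below, where 18.0% of all regions called in all 6 were above and 27.0% below. Over all 23 regions of the window, del-cIDR was above WT at 13 and below at 3, with a median of 0.19, and KO was above at 9 and below at 2, with a median of 0.09. In the long stretch del-cIDR was above KO at 4 of 10 regions and below at 1, where 15.9% of regions of high local background were above and 54.9% below, and 24.9% and 33% of all regions called in all 6. With the deposited fold in place of height, the del-cIDR median over the window was 0.02.

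Calls were missing from the KO lists inside the long stretch. R32, 1105 bp long at chr7:3267450-3268554, had 75 and 67 tags in WT, 66 and 53 in del-cIDR, and no call in either KO library. The height that a call needs grows with the local background, which a missing region does not give, so it was taken from the other replicate of the genotype or, where neither replicate had a call, as the mean of the libraries that called the region, relative to each library-wide background. At a background within 10% of that, the lowest called heights were 44 and 40 tags in the KO lists, below every height at which R32 was called. R32 is next to R31 and R33.

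R25, at chr7:3252591-3253084, had 70 and 85 tags in WT, 42 in KO replicate 1, 100 and 86 in del-cIDR, and no call in KO replicate 2, where the lowest called height at a similar background was 30 tags. The 1 KO height was below all 4 others. R28, at chr7:3260250-3260496, had 45 and 46 tags in WT, 35 in KO replicate 1 and 49 and 44 in del-cIDR, and again no call in KO replicate 2, where the limit was 23 tags. R27, at chr7:3259425-3259565, had 57 and 45 tags in WT and no call in the other 4 libraries. The lowest called heights at a similar background were 37 and 30 tags in the KO libraries and 33 and 32 in del-cIDR. All 4 regions were called in both WT libraries, and KO had the fewest calls at R25, R28 and R32. At R25 and R28, chosen after their values were seen, only KO replicate 2 lacked a call, and its list was the shortest. Outside the stretch R16 and R56 also lacked a call in that library alone, while R7 and R64 lacked one in a del-cIDR library alone. How often this occurs over all regions was not counted.

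Over the whole window, 6 of the 59 regions with a call in WT or KO (10.2%) had one in both WT libraries and in no KO library, against 7.63% of all such regions. They were R27, R32, R35, R44, R52 and R59. Outside the long stretch these were low: R44 had 9 and 12 tags in WT, R52 had 20 and 23, R59 had 18 and 25, and R35, at chr7:3275307-3275567, had 24 and 29. At a similar background the lowest called heights in the KO lists were 11 and 9 tags for R59 and 17 and 14 for R35, below their WT heights. Conversely, 5 of 59 (8.47%) had a call in both KO libraries and in no WT library, where 2% of all such regions were. They were R3 and R4, close together at chr7:3159731-3160250 and chr7:3160364-3160707, R41, and R53 and R54, close together at chr7:3313767-3314323 and chr7:3314455-3315016.

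R54 was the tallest of these, with 41 and 28 tags in the KO libraries, 29 in del-cIDR replicate 1 and no call in WT, where the lowest called heights at a similar background were 15 and 16 tags. R53 had 28 and 19 tags in the KO libraries and 20 in del-cIDR replicate 2. R3 had 11 tags in both KO libraries and R4 had 15 and 14, and neither was called in WT or del-cIDR. R41 had 19 and 18 tags in the KO libraries and 11 in del-cIDR replicate 1. Only 3 of the 5 were left when peaks had to reach a −log10 q of 5. The WT regions without a KO call then numbered 9 in place of 6.

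Between WT and del-cIDR, 2 of 57 regions (3.51%) were called in both WT libraries alone, R27 and R35, where 5.85% of all regions were. At R35 the lowest called height at a similar background was 15 tags in both del-cIDR lists, below its WT heights of 24 and 29. One region of 57 (1.75%), R15 at chr7:3222471-3222601 with 12 and 13 tags, was called in both del-cIDR libraries alone, against 1.02%. Between KO and del-cIDR, 2 of 58 (3.45%) were called in both KO libraries alone, R3 and R4, against 4.12%, and 5 of 58 (8.62%) in both del-cIDR libraries alone, R9, R13, R15, R32 and R59, against 4.23%. Without WT replicate 1 the 6 WT regions without a KO call became 10, and without KO replicate 1 they became 11. The 5 KO regions without a WT call became 8 without KO replicate 2. The 5 del-cIDR regions without a KO call became 11 without del-cIDR replicate 1 and 9 without KO replicate 1. Leaving out any of the 4 libraries compared moved the WT regions without a del-cIDR call from 2 to between 4 and 6, the del-cIDR regions without a WT call from 1 to between 2 and 5, and the KO regions without a del-cIDR call from 2 to between 4 and 7. A rule that asks for 1 library in place of 2 is easier to meet.

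**Figure D4:**
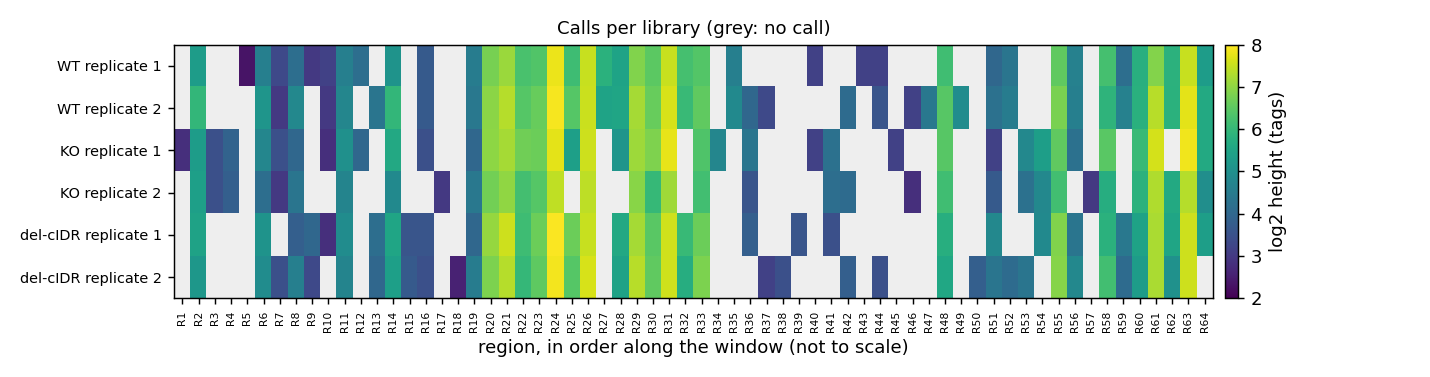
Calls of the 64 regions in order along the window (x axis, not to scale) in each library (y axis), with colour for the log2 height in tags and grey for no call. R20 to R33 form a band of tall regions, with grey at R25, R27, R28 and R32 in 1 or both KO libraries and at R27 in both del-cIDR libraries.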

How the data were processed

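The 6 peak lists were deposited by the authors, 1 per library and not pooled. The submitters' processing notes name MACS2, BWA, fastp, Picard, SAMtools and featureCounts, and the build GRCm39. Versions, settings and any shift of reads to the cut site: not given in the sources used here. The deposited fold is a ratio, and the deposited p and q are −log10 values; every listed peak has a q of at most 0.05. Peaks on the spike-in sequence were left out.

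Height and local background were solved from the fold and p of each peak, with a Poisson model (Python 3.11.15, scipy 1.17.1, pandas 2.3.3). The fold was taken as the height plus 1 over the local background plus 1. In 5000 peaks simulated with this same model, 100% of heights were exact, which checks the solving step and not the model. Counting error in tags limits the precision of low regions. Percentiles were taken within each list. Groups came from sample titles. The correlation of replicate 1 minus replicate 2 between genotypes was -0.00023 to 0.0054 except for WT and del-cIDR (-0.012). The heights thus gave no sign that equal replicate numbers belong together, and samples were not paired. This does not show how the replicates were prepared.

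The members, lists and rules were chosen with earlier results of these data known. Regions named are the 8 highest by mean fold percentile, those specific to a genotype, and, chosen after their values were seen, those of the 2 stretches and R25 and R28. Alternatives were another q limit, overlap, list length, window, scaling and measure, and each library left out. Loci of the microRNA pathway, cell type markers, hairpin positions and motifs at summits were planned and were not analysed here, because the annotation used is of another build.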

Additional observations from a re-analysis of the deposited data

How the results depend on the processing

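With 2 libraries per genotype no difference was tested, and a missing call says little where the calling limit is near the height. The rule for the stretches, their local background and its alternatives were chosen after seeing the data. With a −log10 q of at least 5, KO regions without a WT call numbered 3 in place of 5, and the converse 9 in place of 6. The shares over all regions at that limit were not counted. With lists of equal length, WT regions without a del-cIDR call numbered 1 in place of 2 and the converse 2 in place of 1. The middle part of the window (the central 50%) held 39 regions, 13 of them called in all 6. The strongest region was R24 at 98.3 by −log10 p. The median KO minus WT height over the window (0.09) was 0.15 scaled to chromosome 7, -0.10 scaled to the highest 20% of regions and 0.16 by fold; del-cIDR minus WT (0.19) was 0.11 scaled to the highest 20% and 0.021 by fold. The local background of the long stretch, relative to all regions of high local background, was -0.36 for KO minus WT and 0.11 for del-cIDR minus WT; with a limit of 12 times, which leaves 8 regions, the KO value was -0.33. A change of scaling moves all regions of a library alike; the cause of the other shifts was not tested.

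Leaving out each library in turn gave 7 to 11 regions for WT not KO, 5 to 8 for KO not WT, 4 to 6 for WT not del-cIDR, 2 to 5 for del-cIDR not WT, 4 to 7 for KO not del-cIDR and 6 to 11 for del-cIDR not KO. Median heights ranged from 0.088 to 0.17 (KO minus WT) and 0.14 to 0.16 (del-cIDR minus WT). Local background ranged from -0.24 to -0.22 and from 0.14 to 0.19. With the replicate block the height medians were 0.087 and 0.188. They equal those without it by arithmetic, since averaging the differences of equal replicate numbers gives the difference of the genotype means. The block is therefore no check of these medians.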
